A study of Mus musculus with 113 samples.

Results

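Mouse 8C embryos in which *Nr5a2* was spared by a triple knockdown (3KD) were compared with 8C embryos of the other 3KD groups, all of which received *Nr5a2* siRNA. Of 113 samples in the series, 92 had an FPKM file and 8 of these made up the comparison, chosen by their labels: 2 libraries of *Nr5a2*-spared embryos (siRNAs against *Rarg*, *Nr1h3* and *Nr2c2*) and 6 libraries of the *Rarg*-spared (siRNAs against *Nr5a2*, *Nr1h3* and *Nr2c2*), *Nr1h3*-spared (*Nr5a2*, *Rarg* and *Nr2c2*) and *Nr2c2*-spared (*Nr5a2*, *Rarg* and *Nr1h3*) groups, 2 each. All embryos were wild type, from superovulated C57BL/6N females mated to PWK/PhJ males as the methods describe, and had been injected at the zygote stage with siRNA at 5 μM per target. Libraries were made from pooled embryos with Smart-seq2, which amplifies whole transcripts from little RNA. The comparison asks what differs at 8C when *Nr5a2* is left out of the knockdown, with 3 receptors targeted in every embryo. The *Nr5a2* siRNA is not the sole difference, because *Rarg*, *Nr1h3* and *Nr2c2* were each targeted in the spared group but left untargeted in 1 of the other 3 groups. Effects of the *Nr5a2* siRNAs on other transcripts cannot be told apart from those of *Nr5a2* loss by this design.

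NR5A2 is an orphan nuclear receptor that binds DNA as a monomer at an extended site with the core CAAGGTCA, and a form of this core, CAAGGCCA, is found in B1 repeats. In the mouse it is transcribed from zygotic genome activation (ZGA) onwards, and in stem cells and early embryos it is known for acting on pluripotency genes. RARG is a retinoic acid receptor, NR1H3 (LXRα) an oxysterol receptor of lipid metabolism and NR2C2 (TR4) an orphan receptor, and all 4 recognise related sites.

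Promoters of the genes with the largest positive differences are shown where they hold 1 of these cores, which NR5A2 is known to recognise. Binding of NR5A2 at these promoters was not examined. Of the 15 higher genes with the largest difference (named below), 11 matched a RefSeq promoter (GRCm38.p6, 250 bases before to 50 after the annotated start) and 3 held CAAGGTCA or CAAGGCCA on either strand. They are printed on the strand of the gene, with the match in capitals. TGGCCTTG is CAAGGCCA and TGACCTTG is CAAGGTCA read on the opposite strand.
*Khdc3*, chr9:73102148-73102447 (plus strand): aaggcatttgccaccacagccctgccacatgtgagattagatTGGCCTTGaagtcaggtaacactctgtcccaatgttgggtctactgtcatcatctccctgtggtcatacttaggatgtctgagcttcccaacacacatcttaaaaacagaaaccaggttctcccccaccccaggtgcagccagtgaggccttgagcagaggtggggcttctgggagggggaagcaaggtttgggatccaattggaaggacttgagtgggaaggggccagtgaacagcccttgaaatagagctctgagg
*Prl3b1*, chr13:27242180-27242479 (plus strand): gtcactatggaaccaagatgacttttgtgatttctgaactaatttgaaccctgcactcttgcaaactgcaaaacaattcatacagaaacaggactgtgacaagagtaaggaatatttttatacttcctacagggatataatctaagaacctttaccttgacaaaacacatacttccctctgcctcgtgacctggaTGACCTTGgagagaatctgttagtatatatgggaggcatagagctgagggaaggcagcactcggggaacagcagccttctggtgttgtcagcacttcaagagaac
*Susd3*, chr13:49248245-49248544 (minus strand): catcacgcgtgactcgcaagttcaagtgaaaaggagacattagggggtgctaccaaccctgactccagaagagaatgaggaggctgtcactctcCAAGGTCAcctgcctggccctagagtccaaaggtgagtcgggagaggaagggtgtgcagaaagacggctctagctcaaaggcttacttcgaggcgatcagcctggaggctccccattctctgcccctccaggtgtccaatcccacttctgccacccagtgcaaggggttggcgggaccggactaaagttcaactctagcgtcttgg

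The match began 208 bases before the start in *Khdc3*, 55 before it in *Prl3b1* and 156 before it in *Susd3*. Of the 15 lower genes with the largest difference, 12 matched a promoter and 1, *Pla2g1b*, held CAAGGCCA, 32 bases after the start. Over all genes called higher in the spared embryos, 14 of 198 promoter windows (7.07%, from 146 of 189 genes with a RefSeq promoter) held 1 of the cores. Over genes called lower it was 1 of 104 windows (0.962%, from 83 of 105 genes), and over all genes tested 299 of 10531 windows (2.84%). The shares are a description of these letters in these windows and were not tested.

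The siRNA targets were read first. *Nr5a2* (mm9, chr1:138740161-138857004, minus strand) stood at 45.2 and 31.8 FPKM in the spared libraries and at 3.96 to 9.42 FPKM (median 5.33) in the other 6, so the groups did not overlap. The authors computed FPKM, which divide fragments by the length of a transcript and the size of its library. The log2 difference, on the log2(FPKM + 1) scale used for all differences here, was 2.50 ± 0.39 (SE, limma with replicate number as a block, adjusted p = 0.0069). In NC embryos of the same experiment, injected with negative control siRNA and not part of the comparison, *Nr5a2* was at 43.5 and 30.5 FPKM.

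Each of the other 3 receptors was highest in the group that spared it. *Nr1h3* was at 23.0 and 14.9 FPKM in its own spared group and at 0.373 and 0.222 FPKM in *Nr5a2*-spared embryos, a pairwise log2 difference of -3.91 (adjusted p = 0.021, limma). *Nr2c2* was at 6.37 and 9.30 FPKM where it was spared and at 1.04 and 0.488 FPKM in the *Nr5a2*-spared libraries (log2 difference -2.32, adjusted p = 0.051, limma). *Rarg* was at 23.8 and 4.54 FPKM where it was spared, and at 3.6 and 2.61 FPKM in *Nr5a2*-spared embryos (log2 difference -1.53, adjusted p = 0.33, limma). The *Rarg*-spared libraries thus differed from each other in the transcript that names their group, and the second of them lay close to the libraries given *Rarg* siRNA.

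**Figure D1:**
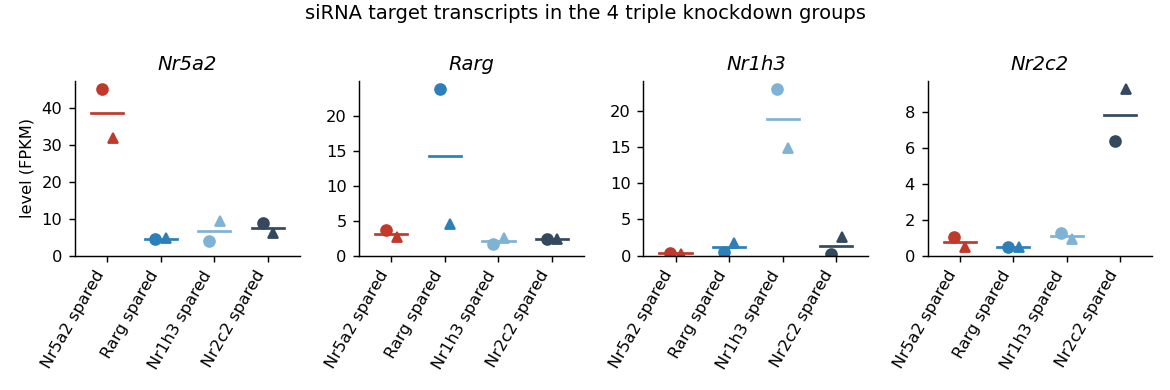
FPKM (linear axes, one scale per gene) of the 4 siRNA targets in the 4 triple knockdown groups, with circles for replicate 1, triangles for replicate 2 and a line at the mean of both. Each receptor is highest in the group that spared it, and *Nr5a2* reaches 45.2 and 31.8 FPKM where it was spared against at most 9.42 FPKM elsewhere.

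FPKM are scaled by library size, so their sums do not measure it. They summed to 388569 to 439796 in the replicate 1 libraries and to 486058 to 543248 in those of replicate 2. Across the 8 libraries, 8538 to 8981 genes reached 1 FPKM. The files hold no counts, so depth is unknown. The spacing of low values gave a relative depth of 0.848 to 1.21, with 1 as the median of these and the NC libraries. In replicate 1 the spared library was at 1.02 and the others at 0.896 to 0.979. In replicate 2 the spared library was the lowest, at 0.848, with the others at 1.13 to 1.21. Replicates of a group correlated at r = 0.901 to 0.920 across genes, which are not independent replicates. Per the methods, each sample was a pool of several washed embryos. The study's legends call the pairs of its other knockdowns biological replicates, but the legend on the triple knockdowns does not say this. Beyond the methods and legends, only the replicate numbers and the library numbers in the column headers bear on how these pools were made. The p-values thus measure the spread between these pools, which may in part be technical. The 8 blastomere markers were present in every library, while 8 of 11 cumulus or granulosa markers were at 0 throughout and the sum of that list was at most 0.405 FPKM. The 6 blood markers summed to 17.0 to 31.1 FPKM in the spared libraries and 46.2 to 186 FPKM in the other 6, with *Hba-a1*, an alpha-globin gene called lower in spared embryos (log2 difference -2.27, adjusted p = 0.018, limma), at the highest level of the 6 in every library. *Cd68*, a macrophage gene, was at 7.38 and 4.96 FPKM in the spared libraries and at 0.566 to 20.5 FPKM in the others. *Lyz2* was above 0 in 2 of the 8 libraries (0.376 and 0.777 FPKM), and *Ptprc*, *Hbb-b1* and *Csf1r* were at 0 in all 8. The part of blood cells in the results was not tested.

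Of 10453 genes tested (a mean of at least 1 FPKM in at least 1 group), 294 (2.81%) differed between *Nr5a2*-spared embryos and the mean of the other 3 groups at an adjusted p under 0.05. They comprised 189 genes that were higher (1.81%) and 105 that were lower (1%) in spared embryos. The median difference was 1.95 among higher genes and -1.88 among lower genes, beside -0.0033 over all genes tested. For 178 of the 189 both spared libraries lay above all 6 others, and for 88 of the 105 both lay below, beside 8.61% and 5.87% of all genes tested. The choice of these genes on the same 8 libraries favours such medians and such separation. The limits of the study's methods (adjusted p under 0.01 and a log2 difference of at least 2) kept 42 higher and 20 lower genes, 0.593% of genes tested. In a fit without the replicate block the counts were 18 and 1. Leaving out either spared library left 0 genes called (837 and 1364 at an unadjusted p under 0.05), so the counts rest on all 8 libraries. With a minimum mean of 5 FPKM, an alternative added after the data were seen, the same 2 omissions left 8 higher and 5 lower, and 8 higher and 17 lower.

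Among the largest differences were genes at high levels in spared embryos and close to 0 elsewhere. *Psme1*, a subunit of the proteasome activator PA28, stood at 68.9 and 104 FPKM in the spared libraries and at 0 to 8.97 FPKM (median 1.71) in the other 6, a log2 difference of 4.92 ± 0.53 (adjusted p = 0.0012, limma). *Khdc3*, a member of the subcortical maternal complex, was at 91.8 and 149 FPKM against 0.215 to 31.6 FPKM (median 2.30, log2 difference 4.91 ± 0.72, adjusted p = 0.0058, limma). The highest of the 6 was replicate 2 of the *Nr1h3*-spared group, and the next was at 4.53 FPKM. *S100a3*, a calcium-binding protein of the S100 family, was at 52.6 and 80.3 FPKM against 1.15 to 5.59 FPKM (log2 difference 4.32 ± 0.42, adjusted p = 0.0012, limma).

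*Cdc42ep5*, an effector of the GTPase CDC42, was at 32.1 and 21.7 FPKM in spared embryos. It was listed at 0 in the 4 libraries of the *Rarg*-spared and *Nr1h3*-spared groups and at 1.60 and 3.50 FPKM where *Nr2c2* was spared. *Mbl2*, a secreted mannose-binding lectin, was at 29.4 and 8.77 FPKM against 0.397 FPKM in 1 of the 6 libraries and a listed 0 in the other 5. *Cdc42ep5* was thus detected in 2 of the 6 libraries given *Nr5a2* siRNA and *Mbl2* in 1. *Mbl2* passed the filter on low values only through the spared group.

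The rest of the 15 had varied roles. *Tdh*, threonine dehydrogenase, the enzyme of threonine catabolism on which mouse embryonic stem cells rely, was at 37.3 and 33.9 FPKM against 0.787 to 4.93 FPKM (log2 difference 3.40). *Sdc4*, the heparan sulfate proteoglycan syndecan 4, was at 52.8 and 47.0 FPKM against 1.31 to 6.51 FPKM (3.40). *Prl3b1*, a placental lactogen, was at 57.0 and 104 FPKM against 2.34 to 13.8 FPKM (3.59). In all 3 genes every spared library was several times the highest of the other 6.

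*Tex264*, a receptor for autophagy of the endoplasmic reticulum, was at 43.2 and 48.6 FPKM against 2.56 to 6.29 FPKM (log2 difference 3.33). *Susd3* was at 57.1 and 27.5 FPKM against 1.45 to 4.89 FPKM (3.47), and *Crygs*, a crystallin gene, at 34.7 and 60.8 FPKM against 0 to 12.7 FPKM (3.17). *Arhgdig*, *Dcbld1* and the antisense RNA *Abhd11os* completed the set, with log2 differences of 3.33, 3.22 and 3.10 (adjusted p = 0.0069, 0.0090 and 0.0058, limma). Reads of *Abhd11os* and of its partner gene cannot be told apart, since the protocol does not mark strand. *Rpph1*, the RNA component of RNase P, was at 1800 and 1044 FPKM against 39.8 to 462 FPKM. Its log2 difference was 5.11 within replicate 1 and 1.60 within replicate 2, the widest gap between replicate numbers among the 15.

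Of the 15 named genes lower in spared embryos, *Crip1*, a cysteine-rich LIM domain protein, had the highest FPKM in the other 6 libraries. It stood at 137 and 72.3 FPKM in spared libraries and at 577 to 1082 FPKM (median 755) in the other 6, a log2 difference of -2.95 ± 0.30 (adjusted p = 0.0012, limma). *Cd24a*, a small glycosylated surface protein, was at 8.14 and 18.2 FPKM against 46.4 to 189 FPKM (log2 difference -2.64 ± 0.29, adjusted p = 0.0012, limma). *Tmsb4x*, thymosin beta 4, which sequesters actin monomers, was at 3.74 and 1.87 FPKM against 15.5 to 105 FPKM. These 3 genes were well above the filter in all of the 6 libraries given *Nr5a2* siRNA.

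Others were low or listed at 0 in the spared embryos. *Pxt1* was at 0 and 2.36 FPKM against 8.94 to 50.3 FPKM (log2 difference -3.52 ± 0.36, adjusted p = 0.0012, limma). *Rdh12*, a retinol dehydrogenase, was at 0 and 1.70 FPKM against 5.11 to 34.2 FPKM, and *Gip*, the incretin hormone gene, at 0 and 1.99 FPKM against 3.27 to 43.2 FPKM. *Stfa2l1*, a stefin-like gene of a multigene family, and *Cda*, cytidine deaminase, were listed at 0 in both spared libraries and reached 23.6 and 10.1 FPKM at most elsewhere.

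*Gdpd1*, *Pla2g1b* (a secreted phospholipase), *Adm* (the peptide hormone adrenomedullin), *BC053393*, *Thap11* (Ronin, a factor of pluripotent cells) and *Foxh1* (a SMAD partner in Nodal signalling) had log2 differences of -2.77, -3.19, -3.09, -2.44, -2.42 and -2.42. *Adm* and *Foxh1* differed by -4.91 and -3.6 within replicate 1 and by -1.26 and -1.23 within replicate 2. *Oaz1-ps* had a log2 difference of -4.00, but it is a pseudogene that shares sequence with *Oaz1*, so its value is uncertain.

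**Figure D2:**
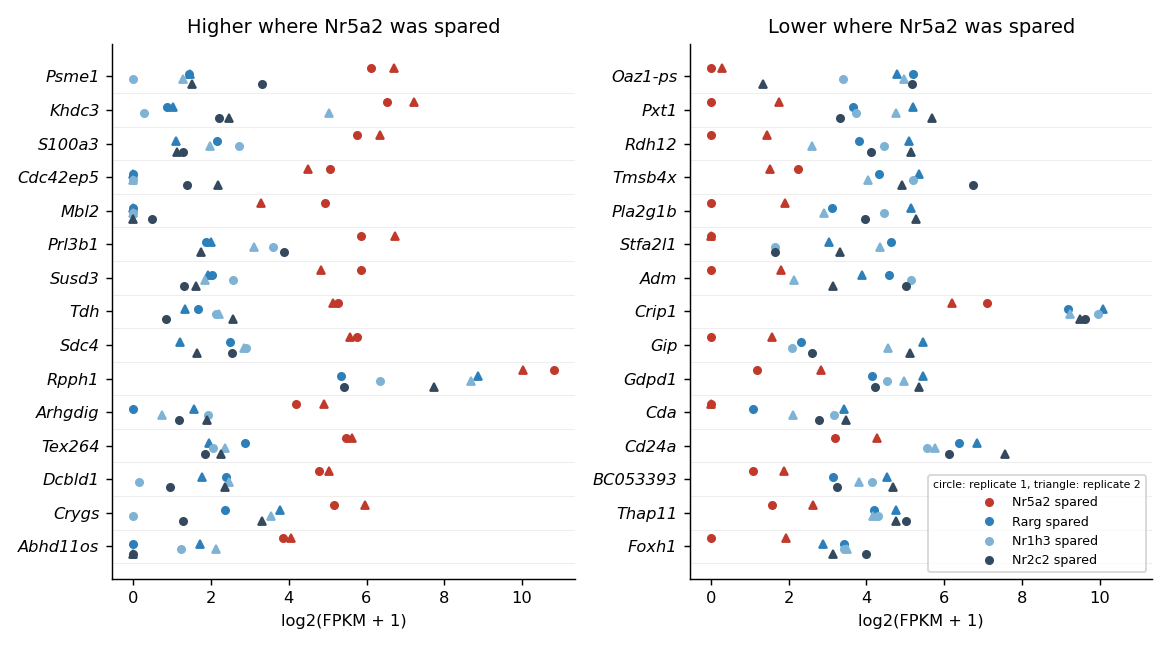
Levels on the log2(FPKM + 1) scale of the 15 genes with the largest positive (left) and negative (right) differences, with 1 point per library coloured by group, circles for replicate 1 and triangles for replicate 2. By the rule of choice both red points of *Nr5a2*-spared embryos lie outside the 6 others in every row.

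The groups were also compared in pairs, each of which differs in 2 siRNAs. Sparing *Nr5a2* rather than *Rarg* gave 83 higher and 22 lower genes (105 in all, 1% of genes tested), rather than *Nr1h3* 55 and 27 (82, 0.784%), and rather than *Nr2c2* 85 and 58 (143, 1.37%). These 3 comparisons share the *Nr5a2*-spared libraries. Between groups that had all received *Nr5a2* siRNA, limma called 0 genes for *Rarg*-spared against *Nr1h3*-spared (349 at an unadjusted p under 0.05), 1 (0.00957%) for *Rarg*-spared against *Nr2c2*-spared (331 unadjusted) and 0 for *Nr1h3*-spared against *Nr2c2*-spared (541 unadjusted). The unadjusted counts in the pairs that differ in *Nr5a2* siRNA were 1364, 1313 and 1599. Without the block, the 3 pairs that differ in *Nr5a2* siRNA gave 0 calls each, so the contrast between the kinds of pair in adjusted calls rests on the block.

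The size of the differences showed the same order. The median absolute log2 difference over all genes was 0.425, 0.415 and 0.459 in the pairs that differ in *Nr5a2* siRNA and 0.284, 0.286 and 0.319 in those that do not. All 189 higher and all 105 lower genes kept their sign against each of the 3 groups, and 35 and 12 of them were called in all 3 pairs. Their choice on the mean of the 3 groups favours such agreement.

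**Figure D3:**
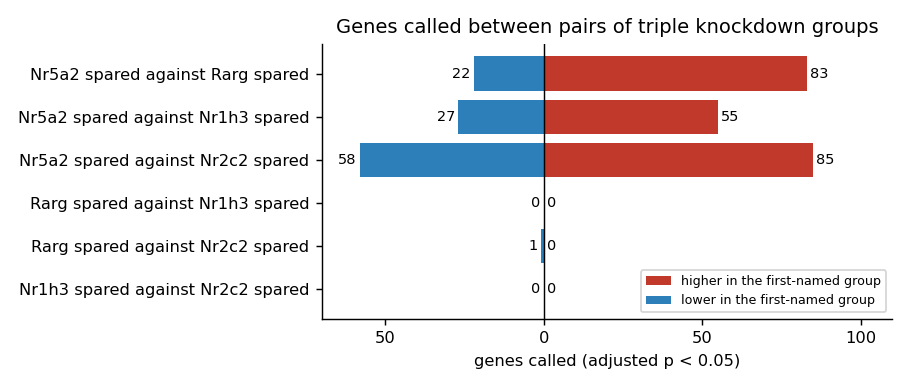
Genes called (adjusted p under 0.05) between each pair of triple knockdown groups, with genes higher in the first-named group to the right and lower to the left of 0. Pairs that differ in *Nr5a2* siRNA have 105, 82 and 143 genes, pairs that do not have 0, 1 and 0.

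Pluripotency genes were described next, from a list of 20 of which 18 were tested. *Tdgf1* and *Klf5* were called higher and 0 were lower (11.1%, beside 2.81% of all genes tested), and the median difference was 0.62, beside -0.0033 over all genes. *Tdgf1*, the Nodal co-receptor Cripto, was at 49.5 and 80.9 FPKM in spared embryos and at 2.49 to 18.0 FPKM (median 8.64) in the other 6 (log2 difference 2.85 ± 0.43, adjusted p = 0.0058, limma). *Klf5*, a Krüppel-like factor of the early lineages, was at 54.1 and 53.6 FPKM against 13.4 to 24.5 FPKM (log2 difference 1.46 ± 0.30, adjusted p = 0.024, limma). In both genes the groups did not overlap.

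*Nanog* was at 14.4 and 24.7 FPKM against 3.29 to 9.34 FPKM. The groups did not overlap, but the log2 difference of 1.60 ± 0.44 missed the limit (adjusted p = 0.079, limma). *Dppa2* and *Tfcp2l1* likewise lay outside the range of the 6 others in both spared libraries, with log2 differences of 0.98 and 1.74 (adjusted p = 0.054 and 0.063, limma). *Pou5f1* (77.5 and 49.0 FPKM against 19.1 to 129 FPKM) and *Esrrb* (12.3 and 4.84 FPKM against 4.35 to 10.7 FPKM) overlapped. *Sox2* was at most 0.308 FPKM in the 8 libraries and was not tested.

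Lineage factors and signalling genes of the early embryo were mostly not called. *Id3*, an inhibitor of bHLH factors and a BMP target, ranged from 84.8 to 616 FPKM in the 6 libraries and was at 366 and 612 FPKM in the spared ones (log2 difference 1.11 ± 0.44, adjusted p = 0.22, limma). None of 12 tested Id and BMP-SMAD genes was called, beside 2.81% of all genes tested. In so short a list this does not show that the groups were alike. *Tfap2c*, a trophectoderm factor, was at 50.8 and 30.9 FPKM against 16.5 to 29.4 FPKM, and both spared libraries were the highest (log2 difference 0.81 ± 0.31, adjusted p = 0.20, limma). *Gata6*, *Fgfr1*, *Fgfr2*, *Tead4*, *Gata3*, *Satb1* and *Rangap1* had log2 differences between -0.33 and 1.10 with overlapping groups and were not called either.

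In the trophectoderm list (15 of 20 tested, median 0.42) the only gene called was lower (6.67%, beside 2.81% of all genes). *Krt8*, an epithelial keratin, was at 11.4 and 3.77 FPKM in spared embryos and at 9.50 to 48.3 FPKM elsewhere (log2 difference -1.69 ± 0.29, adjusted p = 0.0095, limma), with replicate 1 of the spared group inside the range of the others. Of 24 tested genes of compaction, junctions and polarity (median 0.19), *Cldn4*, a tight junction claudin, was the 1 gene called (4.17%, beside 2.81%). It was higher, at 209 and 137 FPKM against 34.1 to 116 FPKM (adjusted p = 0.040, limma). The call was lost with median-ratio scaling and with quantile normalization. *Pard6b*, *Prkcz* and *Cgn*, 2 members of the apical PAR complex and the junction protein cingulin, had log2 differences of 1.48, 1.41 and 1.41 and did not pass (adjusted p = 0.093, 0.10 and 0.11, limma). Of 8 blastocoel fluid transport genes and 9 primitive endoderm genes tested, 0 were called, beside 2.81% of all genes. Lists this short do not show that the groups were alike. The water channels *Aqp11* and *Aqp3* had log2 differences of -1.09 and 1.19 (adjusted p = 0.083 and 0.14, limma), and *Gata4* of -1.08 (adjusted p = 0.14, limma).

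Cell cycle genes (22 of 25 tested, median -0.042) held 2 calls, both higher (9.09%, beside 2.81% of all genes), while 14 of the 22 had a negative difference. *Cdk1*, the mitotic kinase, was at 87.7 and 166 FPKM against 35.0 to 71.1 FPKM (log2 difference 1.07 ± 0.24, adjusted p = 0.038, limma). *Cdc25b*, a phosphatase that activates it, was at 12.4 and 4.50 FPKM against 0.0908 to 1.32 FPKM (log2 difference 2.55 ± 0.46, adjusted p = 0.013, limma). Both spared libraries exceeded all 6 others in each gene. The 2 calls were lost with a pseudocount of 0.1, and that of *Cdk1* also with quantile normalization. Of 23 oocyte-deposited genes tested (median 0.037, 8.70% called), *Khdc3* was higher and *Zp3*, a zona pellucida glycoprotein, lower, at 11.8 and 49.8 FPKM against 77.1 to 172 FPKM (adjusted p = 0.0094, limma).

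Targets of the other receptors and stress responses gave 0 calls by limma, beside 2.81% of all genes tested. These lists were 14 LXR target and lipogenesis genes (median 0.14), 5 retinoic acid genes (-0.26), 15 other nuclear receptors (-0.030), 15 p53 response genes (-0.057), 9 interferon response genes (-0.15), 14 heat shock genes (0.11) and 19 genes of the 2C burst (-0.13). The genes nearest to a call in them were *Tdpoz2* (log2 difference 1.69, adjusted p = 0.056), *Aen* (1.12, 0.056), *Hsph1* (-1.22, 0.089) and *Apoe* (-1.23, 0.11), all by limma. With 2 spared libraries these values do not show that the lists were alike in the groups.

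Stage-specific lists of the study were then read for names only. Of 60 tested 4–8C genes, which are activated between the 4C and 8C stages, 8 were higher and 1 lower (15.0%), beside 2.81% of all genes tested. Their median difference was 0.39 (quartiles -0.36 and 1.34). The higher genes were *S100a3*, *Prl3b1*, *Crygs*, *Anxa9*, *Gm3776*, *Atg16l2*, *Hsd17b1* and *2200002J24Rik*, and the lower 1 was *Gm5547*. *Anxa9*, an annexin, was at a mean of 16.6 FPKM against 1.41 FPKM, and *Hsd17b1*, a steroid dehydrogenase, at 3.74 against 0.198 FPKM. These 9 and the genes of other lists printed without a rule were named because they were called. *Hsd17b1* and *2200002J24Rik* (4.12 against 0 FPKM) passed the filter of 1 FPKM only through the spared group, so they could only be called higher. Of 523 late 2C genes, 16 were higher and 16 lower (6.12%, median -0.067). Of 1050 major ZGA genes 32 were higher and 28 lower (5.71%, median -0.019), of 47 minor ZGA genes 3 and 2 (10.6%), and of 58 ICM genes 2 and 0 (3.45%). The ICM share is near the 2.81% of all genes tested, and of its 2 calls *Nppb* (4.75 against 0 FPKM) passed the filter only through the spared group.

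The study's 8C lists from other libraries were read in the same way. The single KD lists used here hold fewer genes than the study's text counts, so the values are for the genes at hand only. Of 603 tested genes that the study lists as lower after *Nr5a2* single KD, 100 were higher and 0 lower in spared embryos (16.6%, median 0.78). Of 474 listed as higher, 0 were higher and 53 lower (11.2%, median -0.61). For its 4KD lists at 8C, 91 of 280 lower genes were higher here and 0 lower (32.5%, median 1.19). Of 173 higher genes, 35 were lower here and 0 higher (20.2%, median -0.85). Beside these 4 lists, 1.81% of all genes tested were called higher and 1% lower. The 3KD libraries did not enter those lists, but the same *Nr5a2* siRNAs were used. Those lists come from the study's single KD and 4KD embryos at 8C, whose libraries are fitted again below. The overlap with the lists and the fits below are thus not independent of each other.

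Genes called between the 3KD groups were also measured in libraries separate from the 3KD libraries, in which the genes were not chosen. The study's single KD lists above come from the same single KD libraries, so the values here are not a second independent comparison. In the single KD experiment (5 groups of 2 libraries), 186 of the 188 higher genes that could be tested had a negative difference between *Nr5a2* KD and NC embryos, and 100 were called lower by limma (53.2%), beside 2.87% called over all genes in both fits and 2.75% of the 10163 genes of that fit. Their median difference was -2.04, beside -0.22 over all genes (-1.81 beside 0.016 with median-ratio scaling). Of the 105 lower genes, 101 had a positive difference and 14 were called higher (13.3%, median 1.25), or 23 with that scaling. The calls rest on both NC libraries, since without NC replicate 1 or replicate 2 limma called 18 and 2 of the higher genes and 1 and 0 of the lower genes. Without *Nr5a2* KD replicate 1 or replicate 2 it called 81 and 58, and 3 and 8.

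*Khdc3*, *Prl3b1* and *Psme1* had the most negative *Nr5a2* KD differences of the 15 named higher genes, at -6.43 ± 0.46, -5.67 ± 0.46 and -5.44 ± 0.60 (adjusted p = 0.00015, 0.0003 and 0.0024, limma). *Tdgf1*, *Klf5*, *Nanog* and *Id3* differed by -3.96, -2.98, -3.14 and -4.38, each called in that experiment (adjusted p = 0.0064, 0.0024, 0.0024 and 0.0024, limma). *Satb1* and *Fgfr2* were also called, at -2.20 and -1.85 (adjusted p = 0.011 and 0.041, limma). The other tested genes that the study names were not called. *Gata6*, *Fgfr1*, *Pou5f1*, *Tead4*, *Gata3*, *Tfap2c*, *Esrrb* and *Rangap1* lay between -1.92 and 0.10 (adjusted p = 0.062 to 0.97, limma). Whether *Nanog* and *Id3* differed less in the 3KD groups was not tested. Of the 15, *Mbl2*, *Sdc4*, *Susd3* and *Rpph1* were not called there, at -3.26, -3.14, -1.11 and -1.53 (adjusted p = 0.092, 0.12, 0.29 and 0.19, limma). *Rpph1* also stood at -2.03, -1.25 and -3.18 in *Rarg*, *Nr1h3* and *Nr2c2* single KD without a call (adjusted p = 1, 1 and 0.19, limma). *Abhd11os* was likewise at -2.87, -1.64 and -2.12 in them without a call, beside -4.19 in *Nr5a2* single KD (adjusted p = 0.018, limma). *Crip1* and *Cd24a* differed by 2.48 and 1.80 without a call (adjusted p = 0.11 and 0.18, limma), and *Stfa2l1*, *Foxh1* and *Oaz1-ps* by 0.041, 0.21 and 0.065.

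Single KD of *Rarg*, *Nr1h3* or *Nr2c2* gave medians nearer to that of all genes. For the higher genes they were -0.27, -0.17 and -0.34, beside -0.091, 0.0021 and -0.25 over all genes, and 0 of 188 were called in each (1, 1 and 8 of 10163 genes were called over the whole fits). For the lower genes they were 0.12, 0.12 and -0.083. These comparisons share the NC libraries with that of *Nr5a2* KD.

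In 4KD embryos, with siRNA against all 4 receptors and 2 libraries against 2, the medians were -1.58 for the higher and 1.22 for the lower genes, beside 0.0028 over all genes. Negative differences were found for 181 of 186 higher genes and positive ones for 95 of 103 lower genes, though limma called 0 of 9605 genes in that fit (872 at an unadjusted p under 0.05). Blocking on the replicate number, it called 65 of the higher genes lower and 17 of the lower genes higher, beside 1.68% of all genes in both fits. In single embryos injected with base editor (BE) mRNA and an *Nr5a2* sgRNA (14 embryos) against those given BE mRNA or sgRNA alone (8 and 8), where no siRNA was used, the medians were -0.51 and 0.55, beside 0.013 over all genes. Signs were negative for 165 of 186 and positive for 88 of 101, with 3 and 1 genes called, beside 0.164% of all genes of that fit. In the base-edited embryos *Tdgf1*, *Klf5*, *Nanog* and *Id3* differed by -0.60, -0.41, -1.40 and -1.08, and *Susd3* by 0.45, all without a call.

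The base-edited values varied with the libraries used. The column names of 2 of the 14 edited embryos give the 4-cell stage, and without them the medians were -0.40 and 0.41 and 0 genes were called. Within libraries named eBE (6 edited against 4 BE embryos) they were -0.26 and 0.54, beside 0.039 over all genes. Within those named BE4 (6 against 4) they were -1.10 and 0.0098, beside -0.46 over all genes, so relative to all genes the directions were the same.

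**Figure D4:**
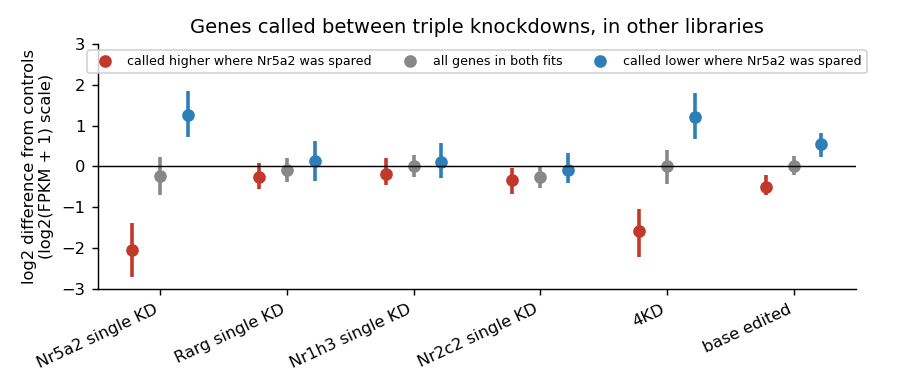
Median (points) and quartiles (lines) of log2 differences from controls in libraries outside the triple knockdowns, for genes called higher (red) or lower (blue) in *Nr5a2*-spared embryos and for all genes in both fits (grey). Red points lie at -2.04 and -1.58 in *Nr5a2* single KD and 4KD embryos, and between -0.34 and -0.17 in single KD of the other receptors.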

How the data were processed

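Per the methods, the authors mapped paired-end Smart-seq2 reads to mm9 with TopHat and made the deposited FPKM per gene with Cufflinks on refFlat, 1 file per library. The submitters' processing notes name CASAVA 1.8 and Bowtie2 2.2.2. FPKM hold no counts, so edgeR, which the authors used, was not run. Low FPKM are imprecise and no interval from depth can be given. log2(FPKM + 1) was fitted with limma 3.58.1 (R 4.3.3, trend), the replicate number as a block and Benjamini-Hochberg adjustment over 10453 genes with a mean of at least 1 FPKM in a group. Column headers place replicate 1 and replicate 2 in separate runs of library numbers, and deviations of same-numbered libraries correlated at r = 0.315 to 0.403 across genes in all 6 pairs of groups. An exact two-sided rank-sum test of 2 against 6 libraries, which takes no account of the block, cannot go below p = 0.0714.

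Named were the 4 targets, 15 genes the study names, the 15 largest called differences per direction among genes at 5 FPKM or more whose groups did not overlap, and up to 4 genes per list. The members and lists were chosen with earlier results of these data known. Gene positions are mm9 (NCBIM37 annotation) and promoters GRCm38.p6. The fit was also run on simulated data with independent residuals, with spread and block effects taken from these libraries. Such data do not show how far the calls depend on single libraries. Alternatives were another pseudocount, filter, scaling or trend, no block, NC libraries in the fit and leaving out each library. Samples outside 8C and those with no FPKM file were not used here.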

Additional observations from a re-analysis of the deposited data

Results flagged for a closer look

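*Ndufs6*, a subunit of mitochondrial complex I, was the only gene called by limma between groups that had all received *Nr5a2* siRNA, and was named after its values were seen. Its log2 difference between *Rarg*-spared and *Nr2c2*-spared embryos was -2.20 ± 0.28 (adjusted p = 0.044). It was at 79.2 and 77.9 FPKM where *Rarg* was spared and at 336 and 397 FPKM where *Nr2c2* was spared. The *Nr5a2*-spared libraries were at 103 and 150 FPKM, the *Nr1h3*-spared at 79.4 and 134 FPKM and the NC libraries at 238 and 470 FPKM. The 3 groups given *Nr2c2* siRNA were all below both NC libraries, but this grouping was made after the values were seen and was not tested. The call was lost without the block, with a pseudocount of 0.1 and with median-ratio scaling.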

How the results depend on the processing

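The counts of genes called varied with the settings. Without the replicate block 18 genes were higher and 1 lower, with no filter on low values 0 and 0 (1895 at an unadjusted p under 0.05, limma), and with eBayes without trend 76 and 30. A pseudocount of 0.1 gave 87 higher and the methods' limits 42 and 20. Leaving out 1 of the 8 libraries gave 0 to 24 higher and 0 to 8 lower, and with a minimum of 5 FPKM as well 8 to 247 and 5 to 184 (8 and 17 without replicate 2 of the spared group, 96 and 36, and 62 and 38 without replicate 1 and 2 of the *Nr2c2*-spared group). The prior degrees of freedom were 8.91 with all 8 libraries and 3.17 to 4.81 with 7. Higher genes were 64.3% of those called, and 54.7% with a pseudocount of 0.1. Of the pairs that differ in *Nr5a2* siRNA, those against *Rarg*-, *Nr1h3*- and *Nr2c2*-spared embryos had 39, 0 and 67 calls with a pseudocount of 0.1 and 0 each without the block. The median of 4–8C genes was 0.65 with a pseudocount of 0.1, 0.59 with a minimum of 5 FPKM and 0.17 to 0.53 when 1 library was left out, lowest without replicate 2 of the spared group. That of genes lower after *Nr5a2* single KD was 0.86 with a pseudocount of 0.1, 0.70 with quantile normalization and 0.73 to 0.84 when 1 library was left out.

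Leaving out 1 library turned the sign of 8 named genes that were not called, with ranges of -0.50 to 0.84 for *Gata6*, -2.63 to 0.21 for *Zfp352*, -0.95 to 0.70 for *Esrrb*, -0.42 to 0.72 for *Fgfr1*, -0.011 to 0.88 for *Tead4*, -0.60 to 0.077 for *Rdh10*, -0.48 to 0.14 for *Rarb* and -0.65 to 0.091 for *Rarg*. In the other experiments, the median of the higher genes in *Nr5a2* single KD was -2.58 with a pseudocount of 0.1 and -1.81 with median-ratio scaling, that in *Nr2c2* single KD -0.072 with median-ratio scaling, and those in 4KD -1.90 and 1.37 (lower genes) with a pseudocount of 0.1. Leaving out 1 library gave ranges of 1.09 to 1.65 (lower genes, *Nr5a2*), -0.56 to 0.014 (higher, *Rarg*), -0.23 to 0.32 (lower, *Rarg*), -1.68 to -1.55 (higher, 4KD) and 1.05 to 1.24 (lower, 4KD). Causes were not tested.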

Other observations

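Neighbouring genes could differ in opposite directions. *Crip2* and *Crip1* lie 6.51 kb apart on mm9 chromosome 12. *Crip2* was at 203 and 188 FPKM in *Nr5a2*-spared embryos and at 18.9 to 72.0 FPKM in the other 6 libraries (log2 difference 2.47 ± 0.27, adjusted p = 0.0012, limma), whereas *Crip1* had a log2 difference of -2.95. Of 268 called genes with a unique mm9 position, 4 pairs lay within 50 kb of each other. *Sct* and *Deaf1* (18.0 kb apart, 2.27 and -1.58) and *Lonp2* and *Siah1a* (0.067 kb apart, 1.48 and -1.32) also differed in sign, and *Rnasek* and *Alox12* (1.61 kb apart, 1.24 and 1.88) did not. In the annotation used for positions the genes of these pairs do not overlap. Whether reads were assigned to the wrong neighbour was not tested. These pairs were named after their values were seen, and no test was run.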
